A study of Mus musculus with 6 samples.

Results

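The 8 genes followed here mark the projection neurons of the striatum and were measured in RNA-seq counts of the adult mouse brain: Ppp1r1b, Rgs9, Adora2a, Pde10a, Adcy5, Rasgrp2, Gpr6 and Rarb. They were taken by gene name, and all 8 of the 8 had a row among the 53801 genes of the table and were among the 23975 genes tested. The libraries came from a frozen brain hemisphere of each of 3 Bahd1-WT (Bahd1+/+) and 3 Bahd1-KO (Bahd1-/-) mice on the C57BL/6 strain, males of about 70 weeks. Bahd1 encodes a protein that helps to form silent chromatin, the null allele is carried by every cell of the body, and a part of Bahd1-KO pups dies around birth, so that the adults sampled were survivors. The hemisphere was extracted whole, without separating the striatum. In such bulk RNA, fewer cells of a type and less RNA per cell cannot be told apart. Each library is 1 mouse, and p-values measure the spread between these mice.

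Striatal projection neurons, also called medium spiny neurons, are the inhibitory output cells of the striatum and receive dopamine from the midbrain. Cells of the direct pathway carry the dopamine receptor Drd1, which raises cAMP, and cells of the indirect pathway carry Drd2, which lowers it, together with the adenosine receptor Adora2a, which raises it. The 8 genes sit along this route: receptors that start the signal (Adora2a, Gpr6), the enzyme that makes cAMP (Adcy5), the enzyme that breaks cyclic nucleotides down (Pde10a), a brake on G proteins (Rgs9), targets further down (Ppp1r1b, Rasgrp2) and a nuclear receptor for retinoic acid (Rarb).

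The upstream sequence of 2 members holds a motif of the signals named above, and both are shown so that the levels further on can be read beside them. The RefSeq table used here (GRCm38.p6) held 8 start sites for 6 of the 8 members, Adora2a and Ppp1r1b not being among them, and 250 bases before each start were searched on both strands for the cAMP response element TGACGTCA and for 3 forms of the direct repeat, with a spacer of 5 bases, that retinoic acid receptors bind. The cAMP response element lay in the window of Gpr6, from 78 to 71 bases before the start, and 1.55% of 32851 upstream windows of 27025 genes held it. The window of Rarb held a direct repeat from 53 to 37 bases before the start, and 0.0365% of the windows held any of the 3 forms. These forms were chosen with the members known, so this share does not measure how unexpected the match in Rarb is. The shorter TGACG, which lies within the full element, was found in the same window of Gpr6 and in 17.8% of all windows. Both genes lie on the minus strand, the sequences run 5′ to 3′ along the gene and end at the base before the start, and capitals mark the motif. The window of Rarb lies inside the span of the gene given further on, before an internal start.
Gpr6 (chr10:41072291-41072540): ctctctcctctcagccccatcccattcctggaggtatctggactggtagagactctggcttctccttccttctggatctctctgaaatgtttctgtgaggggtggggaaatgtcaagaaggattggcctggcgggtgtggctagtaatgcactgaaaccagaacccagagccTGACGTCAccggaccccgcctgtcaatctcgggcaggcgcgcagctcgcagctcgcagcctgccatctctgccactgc
Rarb (chr14:16575477-16575726): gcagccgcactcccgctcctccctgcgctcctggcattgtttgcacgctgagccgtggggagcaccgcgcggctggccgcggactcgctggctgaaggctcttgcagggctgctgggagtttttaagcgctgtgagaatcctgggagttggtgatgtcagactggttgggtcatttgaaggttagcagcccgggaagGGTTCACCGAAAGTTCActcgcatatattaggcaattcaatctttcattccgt
A match is a description of the letters and says nothing of binding.

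The libraries held 42297150 to 93557948 counts, and no member was near the floor of 3 counts, which is 0.0315 to 0.0690 CPM (read counts scaled to library size by TMM factors). Bahd1 itself was at 13.7 to 15.1 CPM in the Bahd1-WT mice and at 0 to 0.147 CPM in the Bahd1-KO mice, a log2 fold change of -7.67 (SE 0.64; edgeR quasi-likelihood test, adjusted p = 0.0135). All 6 libraries matched their labels in this respect, although leaving out any Bahd1-WT mouse or Bahd1-KO replicate 3 gave an adjusted p of 0.0582 to 0.124 in edgeR. The fold change of a gene moved with the GC content of its transcript. In 10 bins of 13283 expressed genes by GC content, the bin of lowest GC content (median 39.9%) had a median log2 fold change, Bahd1-KO over Bahd1-WT, of -0.56 and the bin of highest GC content (median 59.8%) 1.44. Library by library, the genes of the highest bin stood 0.27, -0.26 and -0.01 from the Bahd1-WT mean on the log2 CPM scale in Bahd1-WT replicates 1, 2 and 3, and 0.57, 2.15 and 1.19 from it in Bahd1-KO replicates 1, 2 and 3. Fold changes and the members' levels are therefore also given with an offset per library, a smooth curve of log2 CPM on GC content and length of the principal transcript, an alternative added after the data were seen, to which the words "with the offset" refer. A planned offset used the longest transcript instead, and its value is also given below for the genes where it clearly has the other sign. Lung surfactant and club cell genes summed to 103, 24.6 and 2.195 CPM in the Bahd1-WT libraries and to 0.437, 1.397 and 0.864 CPM in the Bahd1-KO libraries, and their part in the values below was not tested.

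None of the 8 members was called between genotypes, at an adjusted p under 0.05 and a fold of at least 2 in edgeR's quasi-likelihood test, a rule that 0.00834% of all genes tested passed. At an unadjusted p under 0.05, 4 of the 8 (Ppp1r1b, Adora2a, Adcy5 and Rasgrp2) were higher in Bahd1-KO, beside 19.9% of all genes tested, and none was lower, beside 12%. DESeq2, without or with a prior on fold changes, called these 4 genes at an adjusted p under 0.05, beside 14.3% of all genes tested that were called higher, and Adora2a alone of the members also passed 2-fold, beside 10.5% without and 9.61% with the prior. In 2 members, Ppp1r1b and Adora2a, every Bahd1-KO mouse lay above every Bahd1-WT mouse, as in 20.6% of all genes tested. The median log2 fold change of the members was 0.80, against -0.06 over all genes tested. With the offset the median became -0.18, and again no member was called, by a rule that 0.0125% of all genes passed. No member was then higher at an unadjusted p under 0.05, beside 9.84% of all genes, and 3 (Ppp1r1b, Adcy5 and Rasgrp2) were lower, beside 10.9%. The same 3 had every Bahd1-KO mouse below every Bahd1-WT mouse, as did 13.5% of all genes tested. A single library carried much of the difference without the offset: leaving out Bahd1-KO replicate 2 brought the median to 0.28, with no member called beside 0.0174% of all genes tested, while leaving out Bahd1-KO replicate 1 brought it to 1.05 and had Ppp1r1b, Adora2a, Adcy5 and Rasgrp2 called, beside 14.6% of all genes tested that were then called higher. With the offset, leaving out Bahd1-KO replicate 1 put Ppp1r1b (-0.61, adjusted p = 0.0186) and Adcy5 (-0.41, adjusted p = 0.0210) under an adjusted p of 0.05 in edgeR in the opposite direction, beside 4.84% of all genes tested that were then lower at that threshold. Without Bahd1-WT replicate 2, and with no offset, Adcy5 alone of the members was higher at an unadjusted p under 0.05, beside 13.5% of all genes.

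**Figure D1:**
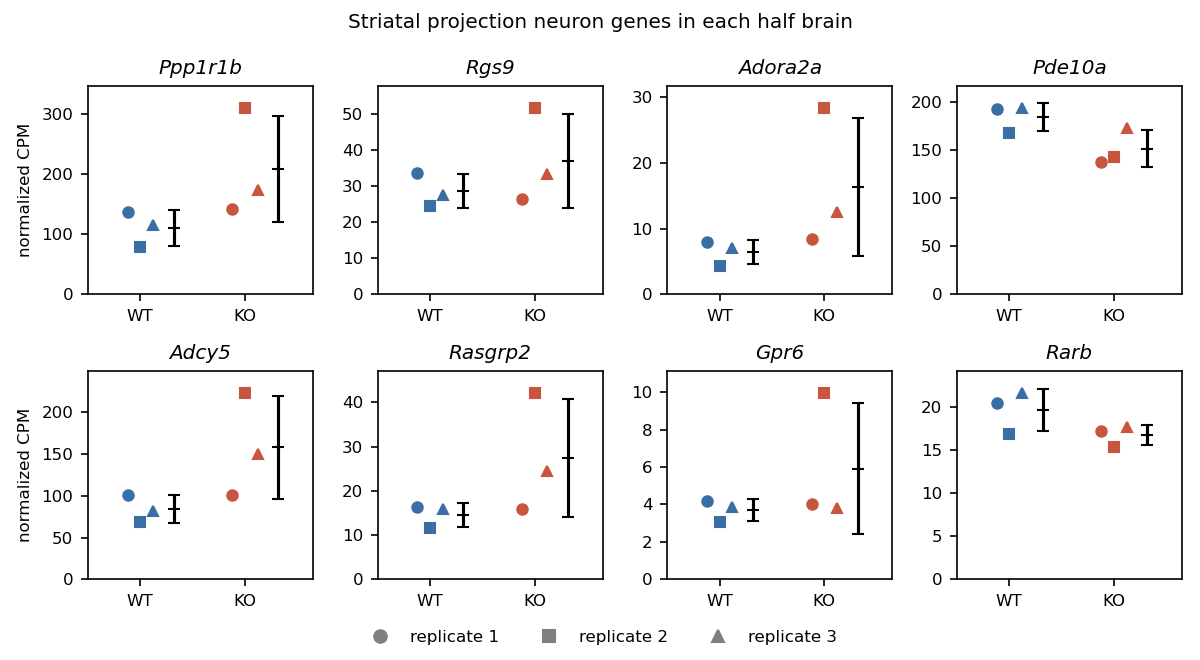
Level of each of the 8 genes in normalized CPM (vertical axes from 0, a scale per gene) in the 3 Bahd1-WT (blue) and 3 Bahd1-KO (red) mice, without the offset. Marker shapes give the replicate number, and the black bar the mean and SD. Bahd1-KO replicate 2, the red square, has the highest level of 6 of the 8 genes.

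The receptors come first. Adora2a, an adenosine receptor of indirect pathway neurons (ENSMUSG00000020178, chr10:75316877-75334784, GRCm38), had 7.92, 4.39 and 7.05 CPM in Bahd1-WT replicates 1, 2 and 3 and 8.39, 28.3 and 12.5 CPM in Bahd1-KO replicates 1, 2 and 3. The genotypes did not overlap, but Bahd1-KO replicate 1 exceeded the highest Bahd1-WT mouse only slightly, and Bahd1-KO replicate 2 stood far above the rest. Adora2a had the highest log2 fold change of the members, 1.35 (SE 0.44; edgeR quasi-likelihood test, adjusted p = 0.0865). The levels with the offset were 10.03, 7.84 and 10.7 CPM in Bahd1-WT and 8.62, 11.1 and 8.97 CPM in Bahd1-KO. They overlapped, and the log2 fold change was 0.01 (SE 0.16; adjusted p = 0.987, edgeR).

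Gpr6, an orphan receptor of indirect pathway neurons that couples to cAMP production without an added ligand (ENSMUSG00000046922, chr10:41069977-41072285), was the lowest of the 8 genes. It had 4.17, 3.04 and 3.86 CPM in the Bahd1-WT mice and 3.999, 9.93 and 3.80 CPM in the Bahd1-KO mice. Only Bahd1-KO replicate 2 lay outside the range of the others, and the genotypes overlapped. Its log2 fold change was 0.68 (SE 0.38; edgeR, adjusted p = 0.239), and leaving out Bahd1-KO replicate 2 brought it to 0.08. With the offset it was -0.25 (SE 0.19; adjusted p = 0.511). Gpr6 is the member with the cAMP response element printed above.

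Adcy5, the adenylyl cyclase that makes most of the cAMP of the striatum (ENSMUSG00000022840, chr16:35154877-35305738), had 101, 68.4 and 81.7 CPM in Bahd1-WT and 100, 223 and 150 CPM in Bahd1-KO. Bahd1-WT replicate 1 and Bahd1-KO replicate 1 were about equal, so the genotypes overlapped, and the other Bahd1-KO mice were higher. This gave a log2 fold change of 0.91 (SE 0.29; edgeR, adjusted p = 0.0793). With the offset the Bahd1-WT mice came to 123, 124 and 125 CPM, and the Bahd1-KO mice to 115, 89.6 and 97.2 CPM. On that scale the 3 Bahd1-WT mice nearly coincided, with an SD of 0.02 on the log2 scale against 0.28 without the offset, and all Bahd1-KO mice were below them. The difference was then -0.31 on the log2 scale (SE 0.10; edgeR, adjusted p = 0.137).

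Pde10a, the phosphodiesterase that degrades cAMP and cGMP in these neurons (ENSMUSG00000023868, chr17:8525372-8986648), had 193, 168 and 193 CPM in Bahd1-WT and 138, 142 and 173 CPM in Bahd1-KO. The ranges met at Bahd1-WT replicate 2 and Bahd1-KO replicate 3, and the Bahd1-KO mice were on the low side. Without the offset this was opposite to the receptors and the cyclase, while with it Adcy5 and Gpr6 were also lower in Bahd1-KO. The log2 fold change of Pde10a was -0.29 (SE 0.16; edgeR, adjusted p = 0.229), and -0.11 with the offset (SE 0.09; adjusted p = 0.542). Among Bahd1-WT mice its highest level was 1.15 times the lowest without the offset, the smallest such ratio of the 8, and 1.14 times with it, where Adcy5 (1.02) and Gpr6 (1.106) varied less.

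Rgs9, whose long splice form is enriched in the striatum and speeds up the shut-off of G proteins below dopamine receptors (ENSMUSG00000020599, chr11:109225355-109298129), had 33.8, 24.6 and 27.7 CPM in Bahd1-WT and 26.4, 51.7 and 33.3 CPM in Bahd1-KO. The genotypes overlapped, and Bahd1-KO replicate 2 again stood apart. The log2 fold change was 0.37 (SE 0.26; edgeR, adjusted p = 0.338). With the offset the level in Bahd1-KO replicate 2 stayed well apart, at 53.3 CPM against 24.4 to 33.8 CPM in Bahd1-WT, and the log2 fold change was 0.42 (SE 0.24; adjusted p = 0.351). Without that mouse the log2 fold change was 0.06, or 0.10 with the offset.

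Ppp1r1b, which encodes DARPP-32, an inhibitor of protein phosphatase 1 once protein kinase A has phosphorylated it (ENSMUSG00000061718, chr11:98348404-98357796), had 136, 78.4 and 116 CPM in Bahd1-WT and 142, 309 and 173 CPM in Bahd1-KO. The genotypes did not overlap, yet Bahd1-KO replicate 1 lay close to Bahd1-WT replicate 1, and Bahd1-KO replicate 2 far above both. Ppp1r1b had a log2 fold change of 0.92 (SE 0.31; edgeR, adjusted p = 0.0947). The offset turned the order round. The levels were then 181, 150 and 189 CPM in Bahd1-WT and 144, 103 and 124 CPM in Bahd1-KO, with the Bahd1-KO mice all lower and a log2 fold change of -0.49 (SE 0.13; edgeR, adjusted p = 0.101). Bahd1-KO replicate 2 was the highest mouse without the offset and the lowest with it.

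Rasgrp2, an exchange factor that activates the small G protein Rap1 (ENSMUSG00000032946, chr19:6399340-6415216), had 16.3, 11.5 and 15.8 CPM in Bahd1-WT and 16.0, 42.0 and 24.5 CPM in Bahd1-KO. The genotypes overlapped at Bahd1-KO replicate 1, and the log2 fold change was 0.92 (SE 0.34; edgeR, adjusted p = 0.108). Its value with an offset depended on the transcript whose GC content was used. The principal transcript has 58.0% GC and gave -0.25 (SE 0.11; edgeR, adjusted p = 0.228). The longest transcript, which retains an intron and has 50.1% GC, gave 0.90 (SE 0.28; edgeR, adjusted p = 0.115), and with it every Bahd1-KO mouse was above every Bahd1-WT mouse. The counts, summed over all exons of a gene, do not tell which transcript the reads came from.

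Rarb, the retinoic acid receptor beta and the member with the direct repeat before an internal start (ENSMUSG00000017491, chr14:16430839-16819156), had 20.4, 16.8 and 21.5 CPM in Bahd1-WT and 17.2, 15.4 and 17.6 CPM in Bahd1-KO. Bahd1-WT replicate 2 lay among the Bahd1-KO mice. The log2 fold change was -0.23 (SE 0.18; edgeR, adjusted p = 0.388) and -0.06 with the offset (SE 0.12; adjusted p = 0.822). Among Bahd1-KO mice it varied least of the 8, with a highest level 1.14 times the lowest.

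**Figure D2:**
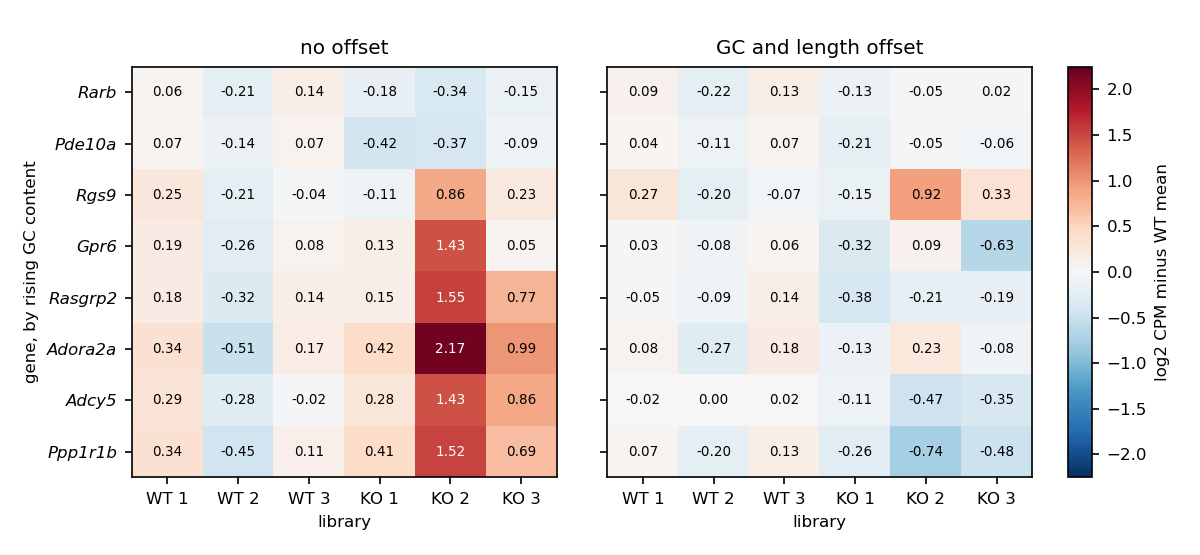
Level of each gene in each library as log2 CPM minus the Bahd1-WT mean (color and printed number), with the genes ordered by rising GC content, without the offset (left) and with it (right). The left panel is red in Bahd1-KO replicate 2 for all genes from Rgs9 down, and on the right that library stands at 0.92 for Rgs9, 0.23 for Adora2a and 0.089 for Gpr6, and below 0 for the other genes.

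As single libraries, the hemispheres were compared by the mean over the 8 genes of log2 CPM minus the Bahd1-WT mean. It was 0.22, -0.30 and 0.081 in Bahd1-WT replicates 1, 2 and 3 and 0.085, 1.03 and 0.42 in Bahd1-KO replicates 1, 2 and 3. Bahd1-WT replicate 2 had the lowest level of 6 of the 8 genes, and Bahd1-KO replicate 2 the highest of 6. The genes did not move together in Bahd1-KO replicate 2: Adora2a stood 2.17 above the Bahd1-WT mean, while Pde10a stood 0.37 below it, at -0.37. With the offset, the library means narrowed to 0.06, -0.15 and 0.08 in Bahd1-WT and -0.21, -0.03 and -0.18 in Bahd1-KO. On that scale all 8 genes of Bahd1-KO replicate 1 lay below the Bahd1-WT mean, and Bahd1-KO replicate 2 had 3 above it and 5 below.

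Ratios of 2 members within a library do not depend on how much striatum it held if both come from the same cells. That condition was not tested, and Adora2a is a gene of indirect pathway neurons. Without the offset, ratios of genes of unlike GC content also carry the GC trend of their library. Ppp1r1b over Pde10a was 0.706, 0.468 and 0.598 in Bahd1-WT and 1.03, 2.17 and 1.00 in Bahd1-KO as a ratio of CPM. The genotypes were apart in this ratio, and Bahd1-KO replicate 2 had the highest value. With the offset, the ratio was 1.02, 0.939 and 1.04 in Bahd1-WT and 0.967, 0.618 and 0.744 in Bahd1-KO, so its order in Bahd1-KO replicates 2 and 3 turned. Adora2a over Rarb was 0.389, 0.261 and 0.327 in Bahd1-WT and 0.489, 1.84 and 0.709 in Bahd1-KO, and lay between 0.483 and 0.627 in all 6 libraries with the offset. Rgs9 over Rarb was 3.36 in Bahd1-KO replicate 2, against 1.29 to 1.90 in the other libraries, and 3.00 with the offset, against 1.33 to 1.89.

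**Figure D3:**
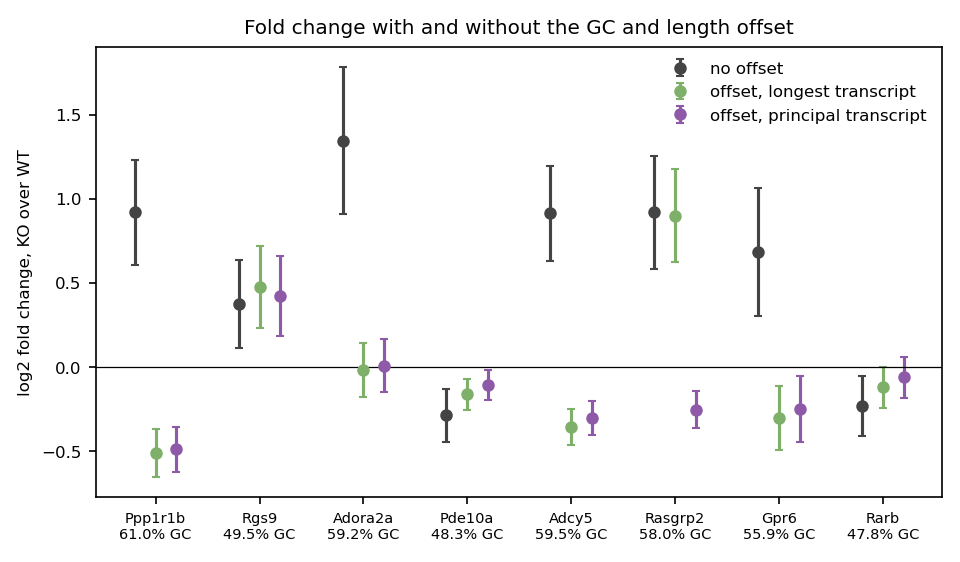
Log2 fold change, Bahd1-KO over Bahd1-WT, of each gene with its SE from edgeR, without an offset (grey) and with the offset on the longest (green) or the principal transcript (purple); the GC content under each name is that of the principal transcript. Ppp1r1b, Adcy5 and Gpr6 are above 0 without an offset and below 0 with either, Adora2a comes to about 0, and Rasgrp2 differs between the offsets.

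The GC content of the members spans most of the range over which the fold changes moved. It is 61.0% in Ppp1r1b, 59.5% in Adcy5, 59.2% in Adora2a, 58.0% in Rasgrp2 and 55.9% in Gpr6, and these 5 are the genes with the highest log2 fold changes, 0.68 to 1.35. It is 49.5% in Rgs9, 48.3% in Pde10a and 47.8% in Rarb, with log2 fold changes of 0.37, -0.29 and -0.23. Ppp1r1b, Adora2a and Adcy5 fall in the bin of expressed genes with the highest GC content, whose median log2 fold change was 1.44, so Adora2a was close to its bin and the other two below it. Rasgrp2 and Gpr6 fall in the next bin, with a median of 0.95. Rgs9 and Pde10a share a bin with a median of -0.09, where Rgs9 stood above and Pde10a below, and Rarb had the median of its own bin, -0.23. The members' median GC content was 57.0%, against 49.2% over all genes tested.

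**Figure D4:**
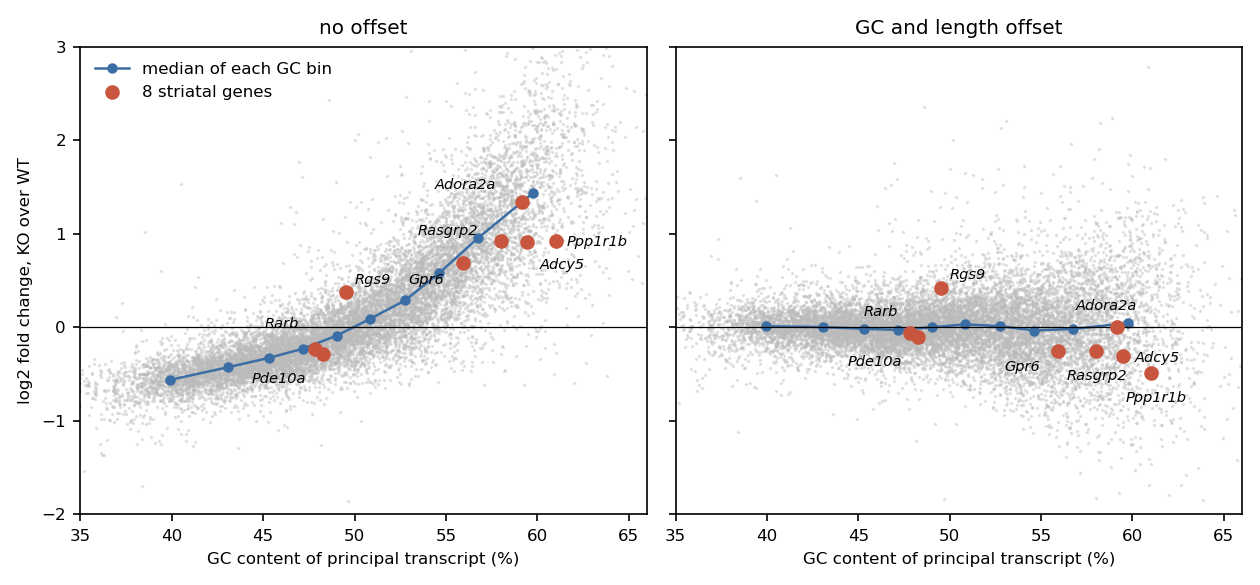
Log2 fold change, Bahd1-KO over Bahd1-WT, against GC content of the principal transcript for 13283 expressed genes (grey points; a few lie outside the axes), the median of each of 10 bins (blue) and the 8 striatal genes (red), without (left) and with (right) the offset. The blue line climbs from -0.56 to 1.44 on the left and stays within 0.05 of 0 on the right; 7 of the red points are near or below the line on the left, and Rgs9 is above it in both.

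Between genes, levels were compared per length, as CPM per kilobase of the principal transcript. In Bahd1-WT, Ppp1r1b had the highest mean level, 55.0, and Pde10a followed at 23.8. Rgs9 (12.4) and Adcy5 (11.96) did not differ beyond the spread between mice, nor did Rasgrp2 (6.34) and Rarb (6.30), nor Adora2a (2.49) and Gpr6 (2.07), while each of these pairs lay apart from the next in all 3 mice. In Bahd1-KO the means were 104 for Ppp1r1b, 22.5 for Adcy5, 19.5 for Pde10a, 16.1 for Rgs9, 11.97 for Rasgrp2, 6.31 for Adora2a, 5.37 for Rarb and 3.31 for Gpr6. Without an offset, such levels also carry the GC trend of their library.

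Likeness between members was measured as the root mean square difference of their log2 CPM profiles, each centred on its own mean over the 6 libraries. Over the 28 pairs it ran from 0.102 (Pde10a and Rarb) to 0.935 (Adora2a and Pde10a), with a median of 0.352. Adcy5 was close to Rasgrp2 (0.113) and to Ppp1r1b (0.132). With the offset Pde10a and Rarb were again the closest (0.0664), and Ppp1r1b and Rgs9 the farthest (0.634). The genes outside the lists whose profile was nearest to the mean of the members, among 14545 with a mean of at least 1 CPM, were Rnf25 (0.055), Amotl2 (0.056), Slc35a4 (0.056), Jrk (0.065) and Usp21 (0.066), with GC contents of 54.4% to 56.6%. With the offset they were Krit1 (0.026), Ccdc15 (0.044), Podxl (0.045), Zfp11 (0.045) and Zfp804a (0.046), none of which was among the first 5.

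Other genes of the same cells were read from lists of 30 genes, of which Bcl11b and Gpr52 were not analysed here and 28 were tested. None of the 28 was called by edgeR, with the offset or without it, and DESeq2 called 2, Chrm4 and Syndig1l, both higher, beside 10.5% of all genes tested without and 9.61% with the prior. At an unadjusted p under 0.05, 8 were higher in Bahd1-KO and 3 lower, beside 19.9% and 12% of all genes tested. With the offset 1 was higher and 10 lower, beside 9.84% and 10.9%. The other lists further on stand beside the same shares. Their median log2 fold changes were 0.20 and, with the offset, -0.085. Without Bahd1-KO replicate 1, edgeR called 3 of them higher, Chrm4, Ptpn5 and Syndig1l, beside 14.6% of all genes tested, and without Bahd1-KO replicate 2 none, beside 0.0174%. The first of these fits with the offset called 4 others, Ankrd63, Lrrc10b, Slc35d3 and Tmem158, all lower, beside 3.41% of all genes called in either direction. Among 16 genes shared by both pathways, 6 were higher and 1 lower, and with the offset none was higher and 8 were lower, beside the 10.9% of all genes tested given above.

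Of the shared genes, Ptpn5, the striatum-enriched phosphatase STEP, had a log2 fold change of 0.88, or -0.29 with the offset. Pde1b, a calmodulin-dependent phosphodiesterase, had 0.42 and -0.40. The planned offset gave smaller values, -0.074 in Ptpn5 and -0.15 in Pde1b, and with it the genotypes overlapped in both. Gnal and Gng7, subunits of the G protein that couples Drd1 and Adora2a to Adcy5, had -0.26 and 0.60, and -0.42 and 0.02 with the offset. Foxp1, a transcription factor of these neurons, had -0.27, or 0.13 with the offset. The lowest of the shared list was Tmem158 at -0.52 and the highest Syndig1l at 1.27. Syndig1l came to -0.07 with the offset, where Kcnip2, a subunit of potassium channels, was highest at 0.16 and Tmem158 again lowest at -1.85. The planned offset gave Kcnip2 -0.26, and Meis2 was then highest at 0.18.

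Among 8 genes of the direct pathway, Chrm4 was higher and Drd1 and Isl1 were lower at an unadjusted p under 0.05, beside 19.9% and 12% of all genes tested. With the offset Chrm4 was higher and Drd1 and Slc35d3 lower, beside 9.84% and 10.9%. Drd1 had 46.5, 42.7 and 45.7 CPM in Bahd1-WT and 35.9, 25.7 and 30.9 CPM in Bahd1-KO, without overlap. Its log2 fold change was -0.54 (SE 0.17; edgeR, adjusted p = 0.0840), and -0.25 with the offset (SE 0.09; adjusted p = 0.165). Chrm4, the muscarinic M4 receptor, stood on the other side, at 3.56, 1.51 and 1.61 CPM in Bahd1-WT and 3.63, 14.4 and 6.98 CPM in Bahd1-KO, a log2 fold change of 1.90 (SE 0.53; edgeR, adjusted p = 0.0660) or 0.77 with the offset (SE 0.30; adjusted p = 0.181). The 2 receptors mark cells of the same pathway and differed in direction on both scales. The peptide genes Tac1 and Pdyn had -0.18 and 0.05, and -0.03 and -0.13 with the offset (0.20 in Tac1 with the planned one), and Slc35d3 was the lowest of the list with the offset, at -0.79.

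Of 4 genes of the indirect pathway, 1 (Grik3) was higher at an unadjusted p under 0.05, and none with the offset. Drd2 had 22.7, 16.3 and 23.5 CPM in Bahd1-WT and 22.8, 45.9 and 26.7 CPM in Bahd1-KO. The genotypes overlapped, and Bahd1-KO replicate 2 was highest. Its log2 fold change was 0.61, or -0.08 with the offset. Penk, the enkephalin precursor, had 0.45 and 0.09, and Sp9 had the lowest value without the offset, 0.28, and the highest with it, 0.10, or -0.013 with the planned offset, where Penk was highest at 0.0052. Summed over the genes of a list, the direct pathway had 245 to 259 CPM in Bahd1-WT and 199 to 242 CPM in Bahd1-KO, and the indirect pathway 239 to 372 CPM and 371 to 535 CPM, while the 8 members had 375 to 513 CPM and 453 to 821 CPM. These sums are without the offset. With it, the mean over the genes of log2 CPM minus the Bahd1-WT mean was -0.078, -0.021 and -0.11 in Bahd1-KO replicates 1, 2 and 3 for the direct pathway and 0.19, 0.097 and -0.20 for the indirect pathway, and both lists then overlapped the Bahd1-WT mice.

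**Figure D5:**
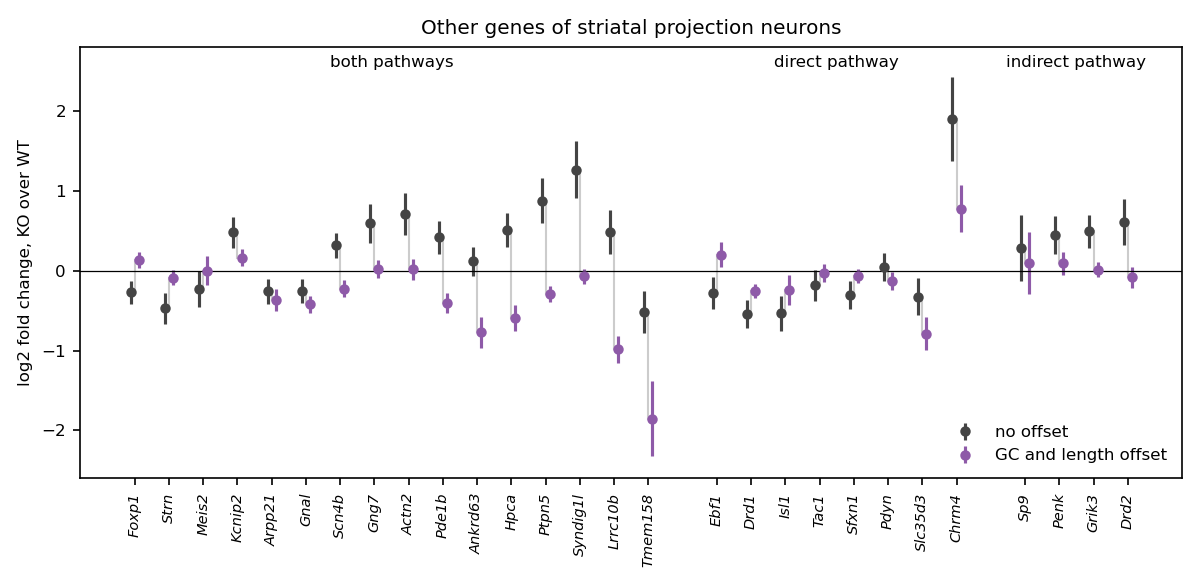
Log2 fold change, Bahd1-KO over Bahd1-WT, with its SE from edgeR, of 28 other genes of striatal projection neurons by pathway and, within it, by rising GC content, without (grey) and with (purple) the offset. Drd1 is below 0 and Chrm4 above 0 on both scales, and Ptpn5, Pde1b and Hpca are among the genes that change side.

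The partners of the members were described in the same way. Of 21 genes for protein kinase A, its anchors, the phosphatases that DARPP-32 meets, kinases that phosphorylate it, Rap1 and the partners of Rgs9, 5 were higher and 2 lower at an unadjusted p under 0.05, and 1 and 2 with the offset, or 0 and 1 with the planned one. None was called by edgeR or DESeq2. Gnb5, the beta subunit that stabilizes Rgs9, had a log2 fold change of 0.32, or 0.12 with the offset. Rgs7bp, the membrane anchor of Rgs9, had -0.52, or -0.05 with the offset. Ppp3r1, the regulatory subunit of calcineurin, was lowest at -0.60, and Csnk1e, a kinase of DARPP-32, highest at 0.77 and also with the offset, at 0.54, where Prkar1b was lowest at -0.45. The planned offset gave Csnk1e -0.14, and Cdk5 was then highest at 0.15. The median of this list was -0.35, or -0.01 with the offset.

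Of 13 genes of retinoid signalling around Rarb, 9 were higher at an unadjusted p under 0.05 and none lower, beside 19.9% and 12% of all genes tested. None was called by edgeR, and DESeq2 called 6 without and 5 with the prior, all higher, beside 10.5% and 9.61%. Their median GC content was 56.3% and their median log2 fold change 0.84. With the offset 5 were higher and 2 lower, beside 9.84% and 10.9%, and the median came to 0.28. The planned offset left 2 higher and 2 lower, beside 9.89% and 11.4% of all genes, with a median of 0.21. Rara, the alpha receptor, had 2.43, 2.35 and 1.51 CPM in Bahd1-WT and 3.999, 16.04 and 7.82 CPM in Bahd1-KO, with log2 fold changes of 2.15 (SE 0.47; edgeR, adjusted p = 0.0634) and 0.78 with the offset (SE 0.23; adjusted p = 0.118). It was the highest of the list on both scales, whereas Rarb stood at or below 0 on both. Rxrg, the partner receptor enriched in the striatum, had 0.99, or 0.33 with the offset. The lowest values were those of Aldh1a1, an enzyme that makes retinoic acid, at -0.33, and with the offset of Cyp26b1, an enzyme that breaks it down, at -0.68.

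Of 22 close relatives of the members, 6 were higher and 1 lower at an unadjusted p under 0.05, or 3 and 2 with the offset, and 2 and 2 with the planned one. Beside Ppp1r1b, Ppp1r1a had a log2 fold change of 0.86, which came to 0.04 with the offset. Ppp1r1c was the lowest of the list at -0.48, or 0.12 with the offset. Beside Adora2a, Adora1 had 0.66, or 0.14 with the offset. Beside Adcy5, Adcy6 had 0.90, or 0.20 with the offset. Beside Rgs9, Rgs7 had -0.43, or -0.25 with the offset, where Rgs6 was lowest at -0.59. The planned offset gave Rgs7 0.21 and Rgs6 -0.047, and Adcy9 was then lowest at -0.50. Rasgrp1, the relative of Rasgrp2 in the same neurons, had -0.35, or -0.11 with the offset, and Rasgrp4, at under 1.5 CPM in every library, was highest at 1.60, or 0.79 with the offset. Adcy4 was highest with the planned offset, at 0.93. Beside Gpr6, Gpr3 and Gpr12 had 0.49 and 0.03, and 0.02 and -0.16 with the offset. Beside Pde10a, Pde11a had -0.24, or -0.20 with the offset.

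Markers of other regions and cell types also differed between libraries. Genes of olfactory bulb neurons summed to 91.8, 23.2 and 26.4 CPM in Bahd1-WT and to 99.7, 43.8 and 19.5 CPM in Bahd1-KO, so the amount of bulb tissue markers differed between hemispheres of the same genotype. Neocortex genes summed to 871 to 1066 CPM in Bahd1-WT and 1036 to 1306 CPM in Bahd1-KO. Of 5 choroid plexus genes, Ttr, the carrier of thyroid hormone, had 309, 285 and 213 CPM in Bahd1-WT and 402, 1018 and 554 CPM in Bahd1-KO replicates 1, 2 and 3, with its highest level in the library that also had the highest level of 6 members. Beside a log2 fold change of 1.29 in Ttr, the other choroid plexus genes had 0.66 in Folr1, -0.065 in Kcne2, -0.22 in Otx2 and -0.40 in Kl. With the offset Ttr had 1.49, Folr1 -0.019, Kcne2 0.19, Otx2 0.0032 and Kl -0.31. Genes of oligodendrocytes summed to 5060 to 5853 CPM in Bahd1-WT and to 5303, 8245 and 7039 CPM in Bahd1-KO replicates 1, 2 and 3. With the offset, the mean over these genes of log2 CPM minus the Bahd1-WT mean overlapped between genotypes. It was -0.087, 0.16 and -0.072 in Bahd1-WT and -0.17, -0.046 and 0.16 in Bahd1-KO. Other lists were read as the mean over genes of log2 CPM minus the Bahd1-WT mean. For hypothalamus genes it was 0.62, 2.39 and 0.60 in Bahd1-KO replicates 1, 2 and 3, or 0.0012, 0.70 and -0.14 with the offset. For thalamus genes it was 0.22, 0.59 and 0.56, or 0.086, 0.26 and 0.40 with the offset. In the lists of hippocampus, cerebellum, astrocytes and microglia it lay between -0.070 and 0.57 in the Bahd1-KO libraries, and between -0.33 and 0.45 with the offset. Neocortex and olfactory bulb genes with the offset had -0.076 to 0.095 and -1.49 to 1.56. Of 10 genes of striatal interneurons, which share the tissue with the members but are other cells, 4 were higher at an unadjusted p under 0.05 and none lower. With the offset 2 of these 10 were higher and 2 lower, beside 9.84% and 10.9% of all genes tested. The median log2 fold change of the interneuron genes was 0.46, or 0.01 with the offset. The part of these markers in the members' values was not tested.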

How the data were processed

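RNA-seq counts per gene came from a brain hemisphere of each of 3 Bahd1-WT and 3 Bahd1-KO mice, grouped by the sample titles. The authors trimmed reads with Cutadapt 1.11, aligned them to GRCm38 with STAR 2.5.0a (the supplementary methods also name Tophat2) and counted reads on exons by strand with featureCounts 1.4.6-p3, and they deposited whole-number counts for 53801 genes with no filter or normalization, as 1 column per mouse.

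Genes were kept where the 6 libraries summed to 10 counts or more (23975). The test was edgeR 4.0.16 (R 4.3.3) with TMM factors and a quasi-likelihood fit on genotype alone, and p-values were adjusted by Benjamini-Hochberg over all genes tested. A gene was called at an adjusted p under 0.05 and an absolute log2 fold change of 1 or more. CPM use TMM-normalized library sizes. DESeq2 1.42.0, other normalizations and filters, the replicate block, leaving out each library and a GC and length offset were alternatives. The offset was a spline of log2 CPM on GC content (5 degrees of freedom) and log length (3), fitted per library to 13283 genes with a mean log2 CPM above 1, from GENCODE M21 transcripts. It was planned for the longest transcript, and the principal transcript was added after the data were seen. The scripts were tested on simulated counts. Members and lists were chosen with earlier results of these data known. The genes named are all 8 members, listed receptors, peptides, partners and closest relatives, the highest and lowest of each list of striatal projection neuron, partner, retinoid or related genes, and the 5 nearest profiles. Grik3, Hpca, Isl1, Ankrd63, Lrrc10b and the choroid plexus genes were named after their values were seen. Counts per library ranged from 42297150 to 93557948, and the floor of 3 counts covers counting error only. Embryonic brains were not analysed here, and a gene of the lists is not reported here.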

Additional observations from a re-analysis of the deposited data

How the results depend on the processing

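Nothing below changed the calls of Rgs9 or Pde10a, or the direction of their fold changes. A filter of at least 1 count and DESeq2, without or with its prior, called 1 member each in place of 0, with 3, 4 and 4 members at an adjusted p under 0.05. With the filter, 8.45% of all genes tested were called and 11% had an adjusted p under 0.05. These fits called 2 of the 28 other striatal genes each, as did edgeR on total counts, beside 8.37% of all genes. Upper-quartile factors gave 1 member lower at an unadjusted p under 0.05, beside 18.1% of all genes, and a median log2 fold change of -0.48 for the partners.

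The GC and length offset on the longest transcript, the same with the replicate block, and the offset on the principal transcript gave, in this order, 1, 1 and 0 members higher and 2, 2 and 3 lower at an unadjusted p under 0.05, beside 9.89%, 7.6% and 9.84% of all genes higher and 11.4%, 8.28% and 10.9% lower. The medians of the log2 fold changes were -0.14, -0.14 and -0.18 for the members, -0.14, -0.14 and -0.085 for the other striatal genes, and -0.080, -0.090 and -0.0076 for the partners. The sign turned in Ppp1r1b (-0.51, -0.52 and -0.49), Adcy5 (-0.36, -0.36 and -0.31), Gpr6 (-0.30, -0.33 and -0.25) and Drd2 (-0.15, -0.15 and -0.082), in Adora2a on the longest transcript (-0.016, and -0.014 with the block), and in Rasgrp2 on the principal transcript (-0.25). The counts and the fitted curves do not show which scale is nearer to the RNA of the tissue, and the cause was not tested.

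Leaving out each library in turn, without and with the offset, gave 0 to 4 members called, 0 to 4 at an adjusted p under 0.05 (4 higher without and 2 lower with the offset, each time without Bahd1-KO replicate 1), 0 to 6 higher and 0 to 3 lower at an unadjusted p under 0.05, and a member median of -0.23 to 1.05. Without Bahd1-KO replicate 1 and with no offset, 6 were higher beside 24.7% of all genes, and 4 were called beside 16.8%. There 30% of all genes had an adjusted p under 0.05, against 10.1% with the offset. The 3 lower, with the offset, came without Bahd1-WT replicate 2 (6.74% of all genes lower) or Bahd1-KO replicate 2 (7.37%). For the other striatal genes, 0 to 4 were called with medians of -0.16 to 0.28, and the medians of the partners were -0.47 to 0.055. The 4 called came without Bahd1-KO replicate 1 and with the offset, beside 3.41% of all genes. The log2 fold changes were -0.61 to 1.17 in Ppp1r1b, -0.12 to 1.70 in Adora2a, -0.41 to 1.19 in Adcy5, -0.30 to 1.23 in Rasgrp2, -0.47 to 0.94 in Gpr6, -0.33 to 0.0016 in Rarb, -0.19 to 0.84 in Drd2 and -11.09 to -7.23 in Bahd1.

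Same-numbered mice are different animals. The correlations of their deviations from the genotype means were -0.644, -0.656 and -0.144, so that the numbers do not pair them. The fit with the replicate block gave 0 members called, 3 higher at an unadjusted p under 0.05, beside 15.1% of all genes, and a member median of 0.67, and changed no other call. Depth limits none of the 8 members, whose lowest count was far above the floor of 3 counts; with 3 mice a genotype, the spread between mice sets the precision.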
